A study of Mus musculus with 3 samples.

Results

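This is an account of 28 genes of cholesterol synthesis, its regulation, intracellular transport, storage and efflux in the mouse uterus at pregnancy day 7.5. The genes were matched by symbol from a list made with earlier results of these data known, and all 28 were found among the 32247 symbols of the count table. They comprise 18 enzymes, 4 regulators, 4 genes of transport and storage, and 2 genes of efflux and lipoproteins. None of the 28 is a lipoprotein receptor, so uptake is represented only by the steps that follow it, and receptors were read from a separate list of 49 further pathway genes.

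The study collected uterus from mated females for spatial sections and for single cells, and the single cells came from trypsin dissociation and a droplet 3' kit that counts unique molecules (UMIs). A single library is described here, from females on normal chow dissected at pregnancy day 7.5; its labels give no strain and no genotype. Single-cell samples labelled Prl8a2icre/+ Sun1-GFPLsL/+ and Sun1-GFPLsL/+ were not analysed here. With 1 library there is no biological replicate, so levels are given as summed UMIs per 1000000 UMIs of a cell group (CPM), and every interval is an exact 95% interval that covers counting error only.

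Cholesterol is built from acetyl-CoA through mevalonate and isoprenoid units to squalene, which is closed to lanosterol and then trimmed to cholesterol in the endoplasmic reticulum. When sterol is low, the escort protein SCAP carries the transcription factor SREBP2 to the Golgi, where it is cut and freed to drive these enzyme genes; when sterol is high, INSIG1 holds SCAP back, and liver X receptors such as LXR-beta (Nr1h2) drive efflux genes such as Abca1. In the mouse uterus, stromal cells around the implanted embryo differentiate into decidual cells, while luminal and glandular epithelium, uterine natural killer (NK) cells and macrophages surround them.

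The library held 2775 barcodes, of which 1822 cells were kept, with a median of 4519 UMIs and 1866 detected genes. They formed 22 clusters, placed with the members and the other pathway genes left out. Of 10 marker-named classes, 7 had at least 50 cells: 419 undifferentiated stromal, 150 decidual, 375 epithelial, 314 NK and innate lymphoid, 270 mononuclear phagocyte, 89 mesothelial and 67 endothelial cells. The median UMIs of these classes ran from 2533 in phagocytes to 6839.5 in decidual cells, and the median mitochondrial share from 3.23% to 11.9% in the same classes. Clusters of 43 T-like, 35 pericyte-like and 23 B-like cells and an unnamed cluster of 37 cells each had fewer than 50 cells. They are given as values only. The decidual class was named from a list of Tdo2, Dio3, Gja1, Bmp2, Wnt4, Cdh11, Htra1, Prl8a2, Prl3c1 and Alpl. A stromal cluster took the name when at least 4 of these 10 lay 1 log2 step or more above their lowest stromal level. Dio3, Bmp2 and Wnt4 were carried mainly by the Bmp2-rich cluster described below. The prolactin-family markers of the class were at or near 0, with Prl3c1 at 0 and Prl8a2 at 1.02 CPM in the cluster where it was found.

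The enzyme genes as a group were lowest in undifferentiated stroma and mesothelium. The 18 enzymes summed to 192 CPM (171 to 215) in undifferentiated stroma and 213 CPM (174 to 257) in mesothelium. Endothelium held 291 CPM (247 to 342). The other large classes lay higher, at 515 CPM (476 to 556) in phagocytes, 535 CPM (498 to 574) in decidual cells, 633 CPM (611 to 655) in epithelium and 685 CPM (659 to 712) in NK cells, beside 557 CPM over all cells. Intervals of phagocytes and decidual cells overlapped, as did those of undifferentiated stroma and mesothelium, and those of mesothelium and endothelium. Epithelium and NK cells were separated by their sums, but their order turned when cells were weighted equally: the mean per-cell level was 534 CPM in NK cells, 600 CPM in epithelium and 547 CPM in decidual cells. Among the small clusters the pericyte-like one had the highest sum, 884 CPM (772 to 1007), but 79 of its 225 enzyme UMIs (35.1%) came from 1 cell, without which the sum was 661 CPM.

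Hmgcs1, Idi1 and Cyp51 together made up 45.5% of all enzyme UMIs. Hmgcs1, the synthase that makes HMG-CoA, ran from 38.0 CPM in undifferentiated stroma to 135 CPM in NK cells. Idi1, which interconverts the isoprenoid units, ran from 8.02 CPM in mesothelium to 89.1 CPM in epithelium. Cyp51, the lanosterol demethylase, ran from 14.2 CPM in undifferentiated stroma to 107 CPM in NK cells. Undifferentiated stroma and mesothelium were among the 3 lowest classes for each of these genes. Other enzymes were sparse: Acat2, Mvk, Mvd, Lss, Tm7sf2, Nsdhl, Hsd17b7 and Dhcr7 stayed at or below 17.2 CPM in every class of at least 50 cells.

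Over the 7 large classes, NK cells were the highest class for 8 of the 28 members, while 16.9% of all genes with at least 50 UMIs were highest there. Decidual cells were highest for 5 members, against 6.86% of all genes. Epithelium was highest for 5 members (11.2% of all genes), phagocytes for 5 (11.4%), mesothelium for 3 (16.6%), undifferentiated stroma for 2 (20.1%) and endothelium for 0 (16.97%). In most cases the highest class did not stand beyond counting error from the next one. The highest class was separated for Fdft1 in epithelium, for Cyp51 and Sc5d in NK cells, for Insig1, Npc2, Soat1 and Apoe in phagocytes, and for Abca1 in undifferentiated stroma.

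**Figure D1:**
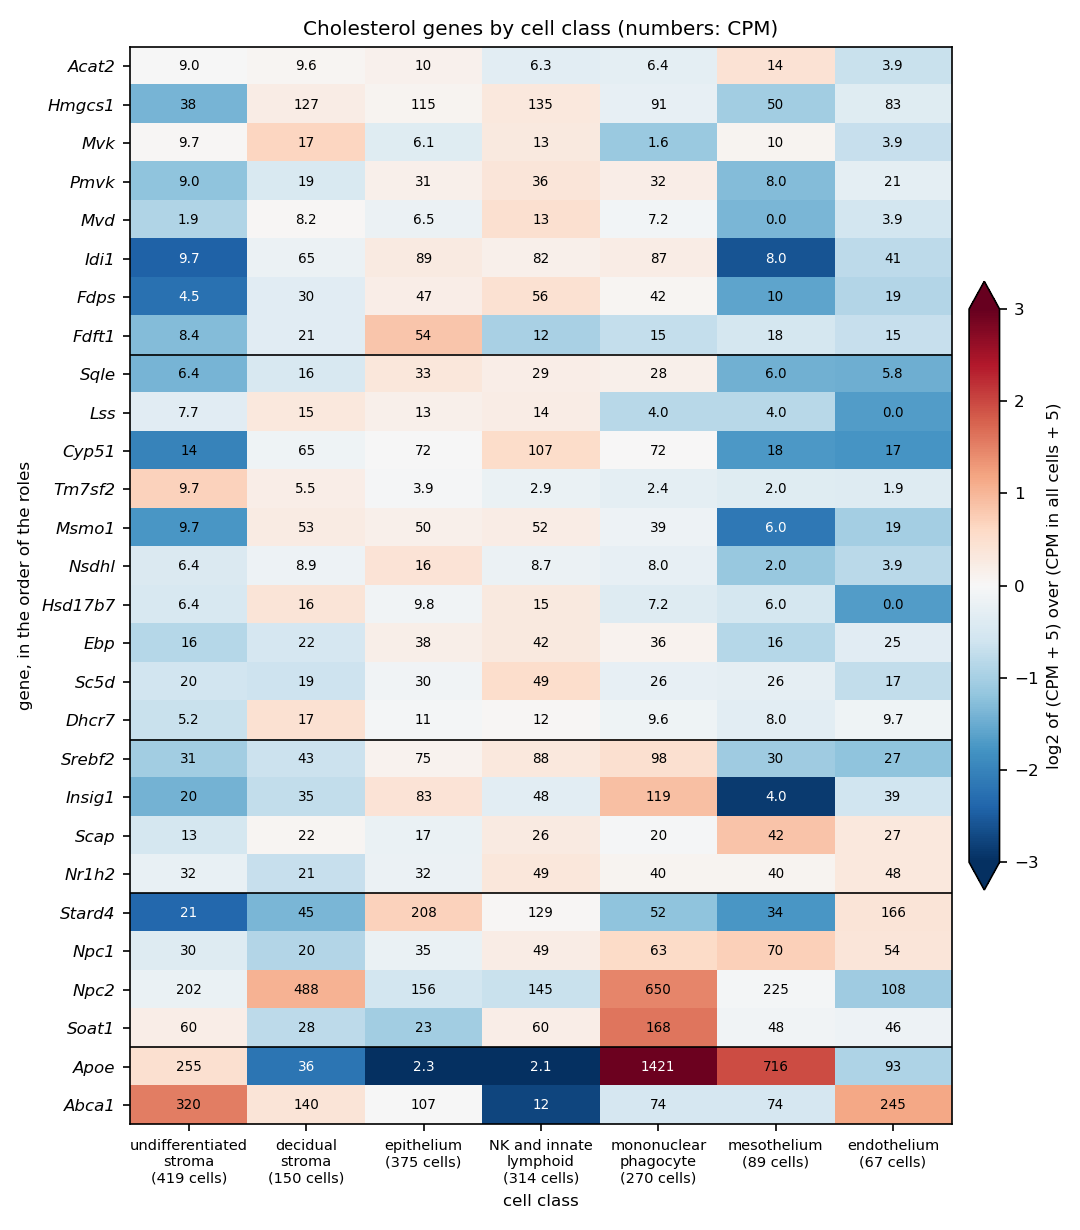
Heat map of the 28 members (rows, ordered by role) in the 7 classes of at least 50 cells (columns); each cell prints CPM and its colour is the log2 of (CPM + 5) over (CPM in all cells + 5). Most enzyme rows are below the level of all cells in undifferentiated stroma and mesothelium, and Apoe spans 2.10 CPM in NK cells to 1421 CPM in phagocytes.

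The promoters of Hmgcs1, Idi1, Cyp51 and Msmo1 are printed because of their ratios in 2 comparisons described next. Among enzyme genes with at least 50 UMIs in each comparison, these 4 were at least 2-fold higher in both. The comparisons were decidual cells against undifferentiated stroma, and the decidual clusters against each other. Each is the RefSeq window on GRCm38.p6 from 250 bases before to 50 bases after the gene's start, written 5' to 3' on the gene's strand. Capitals mark TCACNCCAC, a sterol response element core, and CCAAT, the NF-Y box, on either strand, so that a CCAAT on the other strand reads ATTGG. No marked motif overlapped another. The windows lie at chr13:119690101-119690400 (plus strand) for Hmgcs1, chr13:8885356-8885655 (plus strand) for Idi1, chr5:4104648-4104947 (minus strand) for Cyp51 and chr8:64733529-64733828 (minus strand) for Msmo1.
Hmgcs1: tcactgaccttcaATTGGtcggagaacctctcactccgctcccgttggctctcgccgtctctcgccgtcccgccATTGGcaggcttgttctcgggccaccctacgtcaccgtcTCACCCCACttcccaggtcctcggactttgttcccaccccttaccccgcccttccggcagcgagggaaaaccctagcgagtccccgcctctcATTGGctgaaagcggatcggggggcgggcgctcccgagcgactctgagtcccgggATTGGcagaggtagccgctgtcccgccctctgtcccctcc
Idi1: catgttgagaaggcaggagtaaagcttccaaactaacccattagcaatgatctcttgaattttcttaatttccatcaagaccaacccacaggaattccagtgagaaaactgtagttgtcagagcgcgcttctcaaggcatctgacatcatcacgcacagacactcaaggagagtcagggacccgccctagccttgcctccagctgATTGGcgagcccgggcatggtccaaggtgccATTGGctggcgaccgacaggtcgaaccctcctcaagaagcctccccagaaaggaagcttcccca
Cyp51: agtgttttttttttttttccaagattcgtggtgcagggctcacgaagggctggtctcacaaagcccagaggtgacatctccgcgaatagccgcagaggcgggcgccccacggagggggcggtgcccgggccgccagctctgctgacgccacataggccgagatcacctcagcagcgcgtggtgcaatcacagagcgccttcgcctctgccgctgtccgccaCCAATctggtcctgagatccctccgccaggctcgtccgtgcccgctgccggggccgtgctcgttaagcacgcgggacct
Msmo1: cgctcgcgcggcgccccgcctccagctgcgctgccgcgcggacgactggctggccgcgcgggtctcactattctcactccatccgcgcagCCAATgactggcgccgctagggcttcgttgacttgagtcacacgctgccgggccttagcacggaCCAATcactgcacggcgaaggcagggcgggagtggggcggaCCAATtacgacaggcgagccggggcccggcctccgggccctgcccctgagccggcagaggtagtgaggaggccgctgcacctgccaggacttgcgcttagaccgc
The Hmgcs1 window held 1 TCACNCCAC and 4 CCAAT, the Idi1 window 2 CCAAT, the Cyp51 window 1 CCAAT and the Msmo1 window 3 CCAAT. Promoter windows were given for 23 members, 19 of which had a single window; Fdps, Fdft1, Sqle, Npc1 and Stard4 had none. CCAAT was present in 18 of these 23 members (78.3%), against 41.1% of 27025 genes with a window. A member with several windows counted if any of them held the motif. The background was not limited to genes with at least 50 UMIs here, whereas all members had that many. Among the enzymes CCAAT was present in 14 of 15. GGGCGG, the Sp1 box, was present in 20 of 23 (87.0%) against 38.2%. TCACNCCAC in this exact spelling was found only at Hmgcs1 among the 23 (4.35%), against 1.44% of genes. A match describes the letters in the window and is not a measured binding site.

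Decidual cells carried more of the enzyme genes than undifferentiated stroma, and less of the efflux genes Abca1 and Apoe. The summed enzymes were 2.78-fold higher (2.43 to 3.19), with the mevalonate branch 3.29-fold higher and the steps from squalene on 2.34-fold higher. A gene was counted as higher or lower at a ratio of 2 or more with at least 50 UMIs over both sides. By this rule 7 of the 17 members with enough UMIs were higher and 3 were lower, while 8.53% of all 7492 genes with enough UMIs were higher and 18.4% were lower. The share of lower members was thus near the background. The median log2 ratio was 0.77 over these 17 members and -0.31 over all genes.

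In the mevalonate branch, Hmgcs1 was at 127 CPM in decidual cells and 38.0 CPM in undifferentiated stroma, a ratio of 3.34 (2.48 to 4.56). Idi1 was at 64.6 and 9.67 CPM, a ratio of 6.68 (3.85 to 12.4). Fdps, which makes farnesyl diphosphate, was at 30.2 and 4.51 CPM, a ratio of 6.70 (2.99 to 17.6). All 3 of the branch's genes with enough UMIs were thus higher in decidual cells. Past squalene, Cyp51 was at 65.2 and 14.2 CPM, a ratio of 4.60 (2.87 to 7.68). Msmo1, the sterol C4-methyl oxidase, was at 52.9 and 9.67 CPM, a ratio of 5.47 (3.12 to 10.2). Ebp, the sterol isomerase, and Sc5d, the C5 desaturase, did not reach 2-fold, with ratios of 1.36 and 0.962. The other 11 enzymes had fewer than 50 UMIs over both groups. Of all 18 enzymes, 16 had a ratio above 1, Tm7sf2 and Sc5d being the exceptions. The median log2 ratio over all genes was -0.31.

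Among the regulators, Srebf2, which encodes SREBP2, had a ratio of 1.38 (0.929 to 2.05), an interval that spans 1. Insig1 had a ratio of 1.75 (1.10 to 2.83). Scap had a ratio of 1.70 and Nr1h2 one of 0.674. None of the 4 reached 2-fold in either direction.

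Transport, storage and efflux genes went both ways. Npc2, the soluble lysosomal protein that binds cholesterol released from lipoproteins, was at 488 CPM in decidual cells and 202 CPM in undifferentiated stroma, 2.41-fold higher (2.11 to 2.76); as a mean over cells it was at 302 and 183 CPM, under 2-fold. Stard4, a cytosolic sterol carrier, was at 45.3 and 20.6 CPM, 2.20-fold higher (1.42 to 3.46). Npc1, the lysosomal membrane partner of Npc2, had a ratio of 0.672. Soat1, which esterifies cholesterol for storage, was at 28.2 and 60.0 CPM, 2.13-fold lower. Abca1, the membrane pump that loads cholesterol onto apolipoproteins, was at 140 and 320 CPM, 2.29-fold lower. Apoe, the apolipoprotein that carries lipid between cells, was at 35.7 and 255 CPM, 7.15-fold lower (5.34 to 9.74); 25 of its 52 decidual UMIs (48.1%) were in 1 cell, without which it was at 18.9 CPM. Decidual cells thus had the higher level of the lysosomal carrier Npc2 and the lower level of both efflux genes.

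Of 779 enzyme UMIs in decidual cells, 112 (14.4%) came from 1 cell, and the sum without it was 469 CPM. Decidual cells had a median of 6839.5 UMIs and 11.9% mitochondrial UMIs, against 3306 UMIs and 4.29% in undifferentiated stroma; the part of depth and mitochondrial share in the result was not tested. With cells above 10% mitochondrial UMIs left out, the summed ratio was 2.21 and 4 members were higher.

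Nearly all of the difference lay in 1 of the 2 decidual clusters. The Bmp2-rich cluster (77 cells) had Bmp2, a morphogen of decidualization, at 412 CPM, Dio3 at 854 CPM and Wnt4 at 218 CPM. The Bmp2-poor cluster (73 cells) had them at 12.7, 33.9 and 16.97 CPM, while Tdo2, the tryptophan dioxygenase of decidual cells, was at 2889 and 1404 CPM in the 2 clusters and 21.9 CPM in undifferentiated stroma. The summed enzymes were at 705 CPM (653 to 759) in the Bmp2-rich cluster and 180 CPM (144 to 223) in the Bmp2-poor one, a ratio of 3.91 (3.12 to 4.96). Against undifferentiated stroma, the Bmp2-rich cluster was 3.67-fold higher (3.20 to 4.22), whereas the Bmp2-poor cluster had a ratio of 0.938 (0.729 to 1.20). The 2 comparisons share the undifferentiated cells.

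Between the decidual clusters all 18 enzymes had a ratio above 1, 10 of them with an interval above 1. The median log2 ratio over all genes was 0.279, so most genes also lay above 1 here. It was 2.10 over the 4 enzymes with enough UMIs. With enough UMIs, 7 of 10 members were higher in the Bmp2-rich cluster and 1 was lower, beside 21.3% and 6.81% of all genes. The share of lower members was near the background. Msmo1 was at 75.1 and 6.36 CPM, a ratio of 11.8 (3.89 to 58.6) on 74 and 3 UMIs. Idi1 was at 86.3 and 19.1 CPM, a ratio of 4.52 (2.27 to 10.2). Cyp51 had a ratio of 4.07 (2.11 to 8.79) and Hmgcs1 one of 3.95 (2.48 to 6.64). These are the enzyme genes whose promoters are printed above. Insig1, itself a target of SREBP2, was at 45.7 and 12.7 CPM, a ratio of 3.59 (1.53 to 10.3). Npc2 was at 590 and 274 CPM, 2.16-fold higher (1.78 to 2.63), and at 371 and 229 CPM as a mean over cells, under 2-fold. Abca1 was lower in the Bmp2-rich cluster, at 103 against 218 CPM. Apoe passed the rule at 44.7 against 16.97 CPM, but 25 of its 44 UMIs in the Bmp2-rich cluster were in 1 cell, and without that cell it was at 19.9 CPM.

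Set against undifferentiated stroma, the Bmp2-rich cluster had 7 of 15 members with enough UMIs higher and 3 lower, beside 10.9% and 22.6% of all genes. The share of lower members was again near the background. Idi1 was 8.93-fold higher, Msmo1 7.77-fold, Cyp51 6.09-fold and Hmgcs1 4.41-fold. Insig1, Stard4 and Npc2 were 2.29-fold, 2.46-fold and 2.92-fold higher. Of all 18 enzymes, 17 had a ratio above 1, and Tm7sf2, a sterol C14 reductase, did not. The median log2 ratio over all genes was -0.283 in this comparison. The Bmp2-poor cluster had 0 of 8 members higher and 2 lower, beside 4.08% and 21.7% of all genes, so both counts were near the background. The 2 lower ones were Soat1, at 2.02-fold, and Apoe, at 15.05-fold. Hmgcs1 there had a ratio of 1.12 (0.636 to 1.88). Its decidual markers summed to 2865 CPM, against 5854 CPM in the Bmp2-rich cluster and 2473 CPM in undifferentiated stroma, and its undifferentiated markers to 5527 CPM, against 5304 CPM in undifferentiated stroma; none of its 10 leading genes was a decidual marker.

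Cells with at least 1 enzyme UMI, after each cell was thinned to 2000 UMIs, made up 62.9% of the Bmp2-rich cluster, 22.9% of the Bmp2-poor cluster and 34.3% of undifferentiated stroma; unthinned, the shares were 87.0%, 58.9% and 46.5%. Thinning left out 107 undifferentiated, 15 Bmp2-rich and 3 Bmp2-poor cells that were shallower. Before thinning the Bmp2-poor cluster lay above undifferentiated stroma and after it below, with overlapping intervals of the CPM. The Bmp2-rich cluster had a median of 9510 UMIs and 9.83% mitochondrial UMIs, the Bmp2-poor one 5319 UMIs and 13.5%; their part in the difference was not tested. In cells of 3000 to 12000 UMIs the ratio between the clusters was 6.16, and with cells above 10% mitochondrial UMIs left out it was 2.79.

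**Figure D2:**
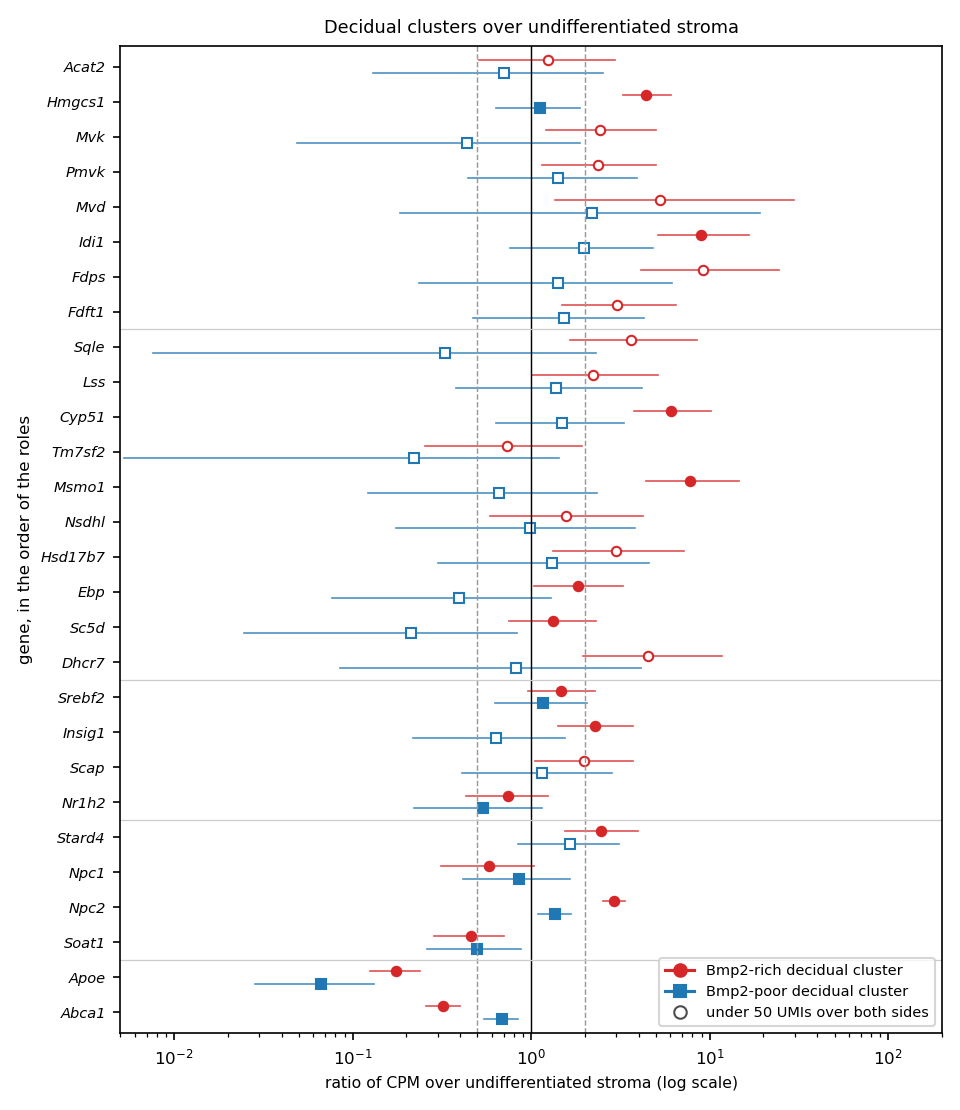
Ratio of CPM (log axis) for each member in the Bmp2-rich cluster and the Bmp2-poor cluster against undifferentiated stroma, with exact 95% intervals; hollow points have fewer than 50 UMIs over both sides. Idi1, Msmo1, Cyp51 and Hmgcs1 lie right of 2-fold in the Bmp2-rich cluster, and Hmgcs1 lies at 1.12 in the Bmp2-poor one.

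The other pathway genes gave 30 of 49 with enough UMIs between decidual cells and undifferentiated stroma, of which 4 were higher and 7 lower. Over all genes with enough UMIs 8.53% were higher and 18.4% lower. The higher pathway genes included Vldlr, the receptor for very-low-density lipoprotein. Pltp, the phospholipid transfer protein, was 9.39-fold lower and Mylip, a ubiquitin ligase of lipoprotein receptors, 4.86-fold lower. Between the decidual clusters 7 of 16 were higher and 1 was lower, beside 21.3% and 6.81% of all genes. Tspo, a mitochondrial outer membrane protein, was 8.43-fold higher in the Bmp2-rich cluster. Gramd1b, a sterol transfer protein, was 4.75-fold lower there, and Vldlr had a ratio of 0.5997. Against undifferentiated stroma, Pltp and Cyp27a1, a sterol 27-hydroxylase, were 12.7-fold and 10.7-fold lower in the Bmp2-rich cluster. In the Bmp2-poor cluster 1 of 20 was higher and 8 were lower, beside 4.08% and 21.7% of all genes. The higher one was Vldlr at 3.02-fold, and Pltp and Tspo were 6.08-fold and 5.11-fold lower.

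Epithelium had more Fdft1, Nsdhl and Stard4 than all other cells, and less Soat1 and Apoe. The summed enzymes were at 633 CPM in epithelium and 516 CPM in the other cells, a ratio of 1.23 (1.17 to 1.28); it was 1.53 as a mean over cells and 1.73 in cells of 3000 to 12000 UMIs. Of the 18 enzymes, 8 had an interval above 1 and 1 had one below 1. The median log2 ratio was 0.291 over these enzymes and -0.346 over all genes. All 28 members had enough UMIs; 3 were higher and 2 lower, beside 11.4% and 27.8% of all genes, so the share of higher members was near the background. Fdft1, the squalene synthase, was at 53.6 and 14.5 CPM, 3.69-fold higher (2.997 to 4.56); it overlaps Ctsb on the opposite strand. Nsdhl, a sterol dehydrogenase, was at 15.6 and 7.63 CPM, 2.05-fold higher (1.48 to 2.86). Stard4 was at 208 and 82.2 CPM, 2.53-fold higher (2.31 to 2.78). Soat1 was 2.98-fold lower, at 22.7 and 67.5 CPM. Apoe was all but absent from epithelium, at 2.35 CPM against 276 CPM, 118-fold lower (67.2 to 228). In cells of 3000 to 12000 UMIs, 6 members were higher in epithelium instead of 3. Of the other pathway genes, 4 of 40 were higher and 17 lower in epithelium. Nceh1, a cholesteryl ester hydrolase, was 7.27-fold higher. Cav1, caveolin, was 87.5-fold lower, and Pltp had 0 UMIs in epithelium and 181 in the other cells.

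The glandular epithelial cluster, 54 cells led by Spink1, Prss29 and Prss28, had fewer enzyme transcripts than the other epithelial clusters. Its summed enzymes were at 313 CPM (265 to 367), against 665 CPM (642 to 689), 2.13-fold lower (1.80 to 2.52); the mevalonate branch was 2.58-fold lower and the later steps 1.72-fold lower. Of 24 members with enough UMIs, 2 were higher and 11 lower, beside 7.99% and 18% of all genes. The share of higher members was near the background. Hmgcs1 was at 31.5 and 123 CPM, 3.91-fold lower, and Idi1 at 29.4 and 95.3 CPM, 3.24-fold lower. Fdps was 3.98-fold, Cyp51 4.07-fold, Msmo1 4.24-fold and Fdft1 2.06-fold lower. Sqle, the squalene epoxidase, had 1 UMI in the glandular cluster and was 17.03-fold lower (3.01 to 677); Hsd17b7, a sterol ketoreductase, also had 1 UMI and an interval that spans 1. The list of lower members also held Srebf2, at 18.9 and 80.6 CPM, Stard4, at 46.2 and 225 CPM, and Scap, whose interval spans 1. Soat1 was higher in the glandular cluster, at 113 against 13.4 CPM, 8.49-fold (5.78 to 12.4). Abca1 was higher too, at 202 against 96.8 CPM, 2.08-fold (1.65 to 2.60). The glandular cells had a median of 3877 UMIs and the other epithelial cells 7258; the part of depth was not tested. In cells of 3000 to 12000 UMIs neither of the 2 higher members passed the rule. Of the other pathway genes, 4 of 26 were higher and 9 lower, with Mylip at 6.499-fold and Insig2, the relative of Insig1, at 2.61-fold higher, and Ch25h, the cholesterol 25-hydroxylase, 8.72-fold lower.

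NK cells fell into granzyme-rich and granzyme-poor clusters, and most enzyme genes were higher in the former. The granzyme-rich clusters (142 cells) had the summed enzymes at 768 CPM (737 to 799), against 318 CPM (278 to 363) in the granzyme-poor cluster (172 cells), a ratio of 2.41 (2.10 to 2.78). Of 19 members with enough UMIs 10 were higher and 0 were lower, beside 17.9% and 14.3% of all genes; this count rests on a size rule with no test. The 10 were Hmgcs1, Pmvk, a mevalonate-branch kinase, Idi1, Fdps, Sqle, the cyclase Lss, Ebp, Sc5d, Srebf2 and Scap. Fdps was at 67.5 and 7.14 CPM, 9.46-fold higher (3.99 to 29.4), and Hmgcs1 at 155 and 47.1 CPM, 3.30-fold higher. Srebf2 was at 97.0 and 45.7 CPM, 2.13-fold higher (1.47 to 3.16). Cyp51 and Msmo1 did not reach 2-fold, with ratios of 1.78 and 1.65, and Insig1 had a ratio of 0.587. Mvk and Acat2 had ratios below 1; Mvk, on 32 and 16 UMIs, was at 10.3 and 22.8 CPM, 2.22-fold lower (1.14 to 4.17), but held fewer than 50 UMIs. Stard4 was at 131 and 118 CPM, and Npc1 and Npc2 had ratios of 0.680 (0.484 to 0.971) and 0.746 (0.611 to 0.916). Abca1 had 8 UMIs in the granzyme-rich clusters and 36 in the other, 2.57 against 51.4 CPM, 19.99-fold lower (9.14 to 49.8), although the 2 sides together held fewer than 50 UMIs. The granzyme-rich cells had a median of 18705.5 UMIs and the others 3690.5, and 1 of the granzyme-rich clusters was led by histone genes, Top2a and Kif11, which mark dividing cells; the part of depth and division was not tested. In cells of 3000 to 12000 UMIs the ratio was 2.98 and 3 members were higher. Of the other pathway genes, 3 of 24 were higher and 5 lower; Erg28, a scaffold of sterol enzymes, was 3.26-fold higher, and Abcg1, an efflux pump, and Mylip were 17.9-fold and 4.505-fold lower.

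**Figure D3:**
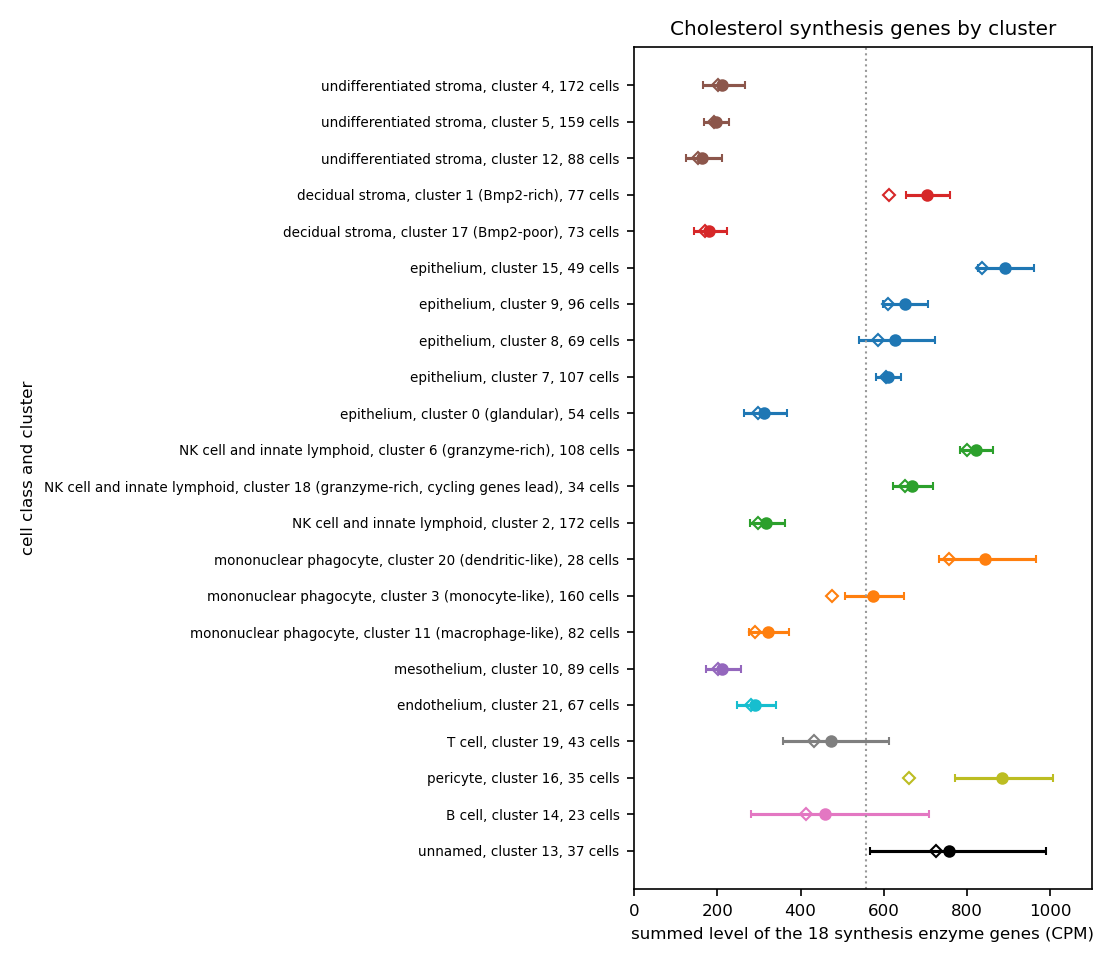
Summed CPM of the 18 enzymes in each of the 22 clusters with exact 95% Poisson intervals; diamonds are the value without the cell of most enzyme UMIs and the dotted line is all cells, at 557 CPM. The undifferentiated stromal clusters and the Bmp2-poor decidual cluster lie far below the line, and the Bmp2-rich decidual cluster lies above it.

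**Figure D4:**
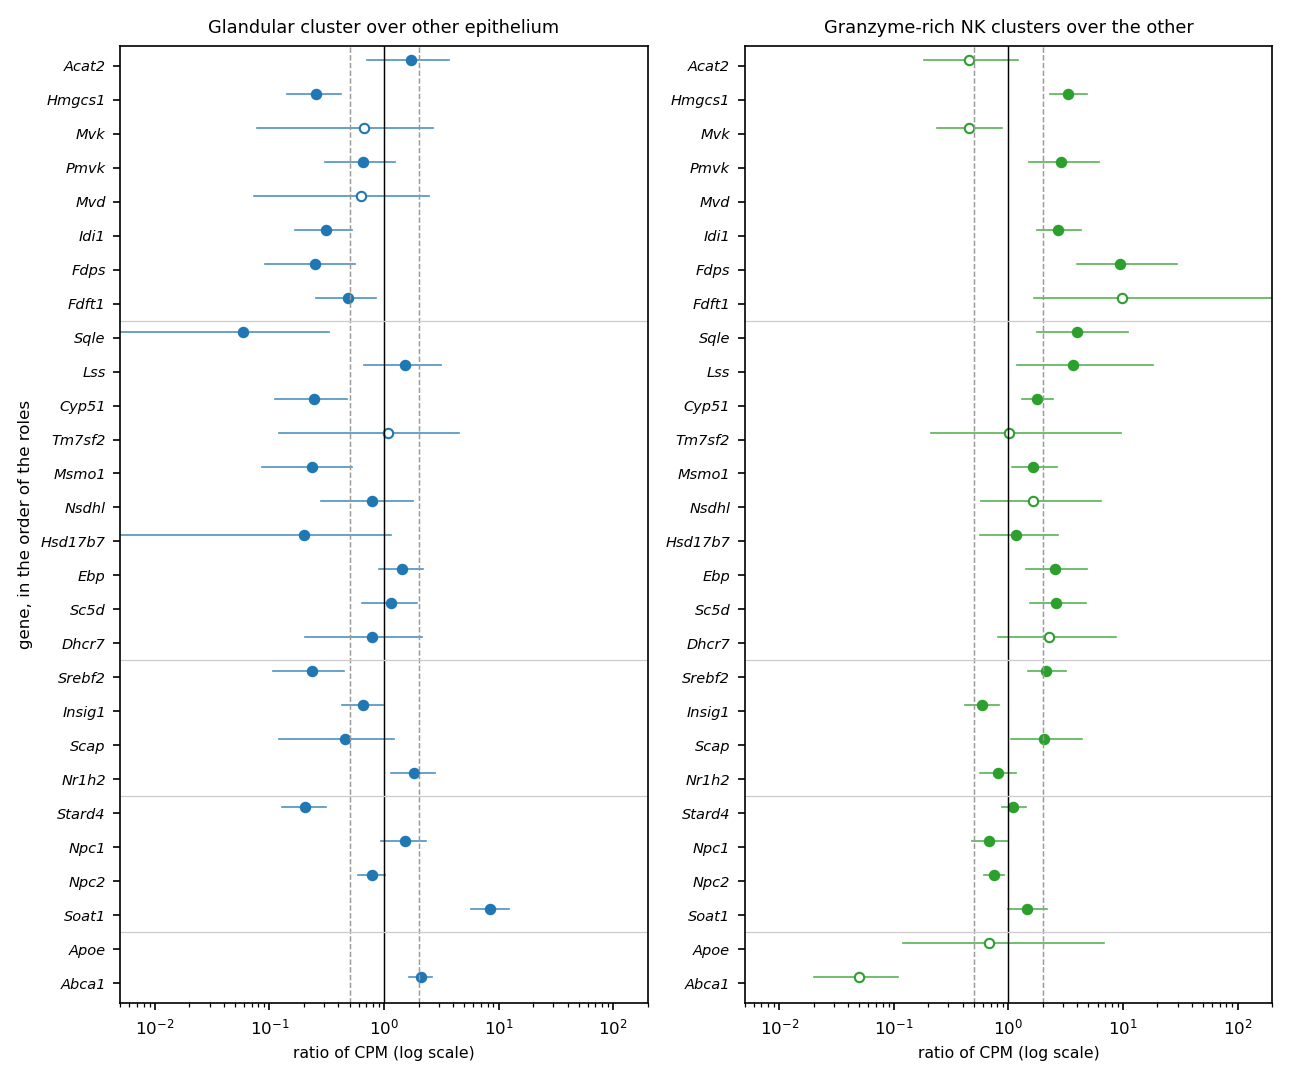
Ratio of CPM (log axis) for each member between clusters of 1 class, with exact 95% intervals: the glandular against the other epithelial clusters, and the granzyme-rich against the granzyme-poor NK clusters. Hollow points have fewer than 50 UMIs, intervals that leave the axis are clipped, and genes with 0 UMIs on a side are not drawn.

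Mononuclear phagocytes had more Apoe, Soat1, Npc2 and Insig1 than the other cells. Their summed enzymes were at 515 CPM, against 561 CPM in all other cells, a ratio of 0.918 (0.846 to 0.995); the class pooled a macrophage-like cluster at 322 CPM, a monocyte-like one at 575 CPM and a dendritic-like one at 843 CPM (732 to 966). Of the 28 members, all with enough UMIs, 4 were higher and 3 lower, beside 11.2% and 33.1% of all genes. The share of higher members was thus near the background. Apoe was at 1421 and 65.4 CPM, 21.7-fold higher (20.04 to 23.6). Soat1 was at 168 and 41.1 CPM, 4.10-fold higher (3.48 to 4.81). Npc2 was at 650 and 194 CPM, 3.35-fold higher (3.09 to 3.63). Insig1 was at 119 and 56.1 CPM, 2.12-fold higher (1.76 to 2.53), and Npc1 and Srebf2 were below 2-fold, with ratios of 1.62 and 1.48. Stard4 was lower, at 52.1 and 133 CPM, 2.55-fold (1.99 to 3.32). The mevalonate kinase Mvk, on 2 UMIs, and Lss, on 5, were 6.22-fold (1.69 to 51.9) and 2.93-fold (1.23 to 9.16) lower. Of the other pathway genes, 8 of 40 were higher and 8 lower. Lrp8, an apolipoprotein E receptor, was 6.44-fold and Lipa, the lysosomal acid lipase, 6.03-fold higher, and Vldlr, on 1 UMI, and Cav1 were 48.2-fold and 45.7-fold lower.

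Within the phagocytes Apoe belonged mainly to the macrophage-like cluster, which was led by Pf4, C1qa and C1qc. It was at 2878 CPM there and 387 CPM in the monocyte-like cluster, 7.44-fold higher (6.36 to 8.75), and had 0 UMIs in the dendritic-like cluster, where 3 counts would be 12.3 CPM. In the macrophage-like cluster 41 of 82 cells held an Apoe UMI, and 399 of its 1600 UMIs (24.9%) were in 1 cell, without which the level was 2219 CPM. Of 11 members with enough UMIs, Apoe was the 1 that was higher, and 2 were lower. These counts were near the background of 7.16% and 12.9% of all genes. The lower members were Hmgcs1, at 43.2 and 112 CPM, 2.59-fold (1.56 to 4.41), and Cyp51, at 32.4 and 91.7 CPM, 2.83-fold (1.59 to 5.24). The summed enzymes were at 322 CPM (277 to 373) in macrophage-like and 575 CPM (507 to 649) in monocyte-like cells, but with finer clustering (Leiden resolution 2) the direction flipped, with a ratio of 1.97. Of the monocyte-like cells' 257 enzyme UMIs, 56 (21.8%) were in 1 cell. The macrophage-like cells had a median of 5972 UMIs and the monocyte-like ones 1471; the part of depth was not tested. Of the other pathway genes, 1 of 13 was higher and 5 lower; Acat1, a mitochondrial thiolase, was 2.38-fold higher, and Mylip had a ratio of 1.90.

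Apoe lies at chr7:19696109-19699188 on the minus strand. Outside the phagocytes it was highest in mesothelium, at 716 CPM (644 to 794), followed by undifferentiated stroma at 255 CPM (231 to 282), endothelium at 92.6 CPM (68.3 to 123) and decidual cells at 35.7 CPM (26.7 to 46.8). In endothelium 17 of 48 UMIs (35.4%) were in 1 cell, without which it was at 61.4 CPM, and the decidual level was 18.9 CPM without its top cell. Epithelium, at 2.35 CPM (1.21 to 4.10), and NK cells, at 2.10 CPM (0.906 to 4.13), overlapped each other and lay below all of these. No other neighbours in this order had overlapping intervals. After thinning to 2000 UMIs, Apoe was seen in 63.0% of mesothelial, 33.6% of phagocyte and 27.9% of undifferentiated stromal cells, against 0.376% of NK cells, a type taken as lacking it; 8, 121, 107 and 48 cells of these classes were too shallow and left out. Unthinned, the shares were 83.2% in mesothelium, 34.1% in phagocytes and 2.55% in NK cells, whose median depths were 5403, 2533 and 5789 UMIs. Macrophage markers summed to 2427 CPM in phagocytes, 32.1 CPM in mesothelium and 9.67 CPM in undifferentiated stroma; their part in the Apoe levels was not tested. Within undifferentiated stroma the Dpt-led cluster held 387 CPM and the other 2 clusters 110 and 97.3 CPM.

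Abca1, at chr4:53030787-53159895 on the minus strand, had another order. It was highest in undifferentiated stroma, at 320 CPM (293 to 350), then endothelium, at 245 CPM (204 to 292), then decidual cells, at 140 CPM. Epithelium followed at 107 CPM, mesothelium and phagocytes at 74.2 and 73.8 CPM, and NK cells were lowest at 11.5 CPM (8.38 to 15.5). The 2 efflux genes were thus both high in undifferentiated stroma and both low in NK cells. They differed in phagocytes and mesothelium, where Apoe was at its highest levels, and in endothelium, where Abca1 was second.

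Among the carriers, Stard4 was highest in epithelium, at 208 CPM (196 to 221), then endothelium, at 166 CPM (133 to 205), and NK cells, at 129 CPM (118 to 141), neighbours whose intervals overlapped. It was lowest in undifferentiated stroma, at 20.6 CPM (14.1 to 29.1). Npc2, at chr12:84754562-84773152 on the minus strand, was highest in phagocytes, at 650 CPM (606 to 697), and second in decidual cells, at 488 CPM (452 to 525), where 119 of 710 UMIs were in 1 cell. Its partner Npc1 was highest in mesothelium, at 70.2 CPM (48.9 to 97.6), beside 62.5 CPM in phagocytes, and lowest in decidual cells, at 19.9 CPM. In decidual cells Npc2 was therefore at its second highest level and Npc1 at its lowest of the 7 classes. The decidual interval of Npc1 (13.3 to 28.6) overlapped that of undifferentiated stroma, at 29.7 CPM (21.7 to 39.6). Soat1, at chr1:156424525-156474331 on the minus strand, was highest in phagocytes, at 168 CPM (146 to 193), and lowest in epithelium, at 22.7 CPM.

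The regulators had a narrower range than Apoe. Srebf2 ran from 27.0 CPM in endothelium to 97.8 CPM in phagocytes. Insig1 ran from 4.01 CPM in mesothelium, on 2 UMIs, to 119 CPM (100 to 139) in phagocytes, and reached 217 CPM in the dendritic-like cluster. Scap, the escort of SREBP2, ran from 12.9 CPM in undifferentiated stroma to 42.1 CPM in mesothelium, and Nr1h2 from 21.3 CPM in decidual cells to 49.3 CPM in NK cells.

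**Figure D5:**
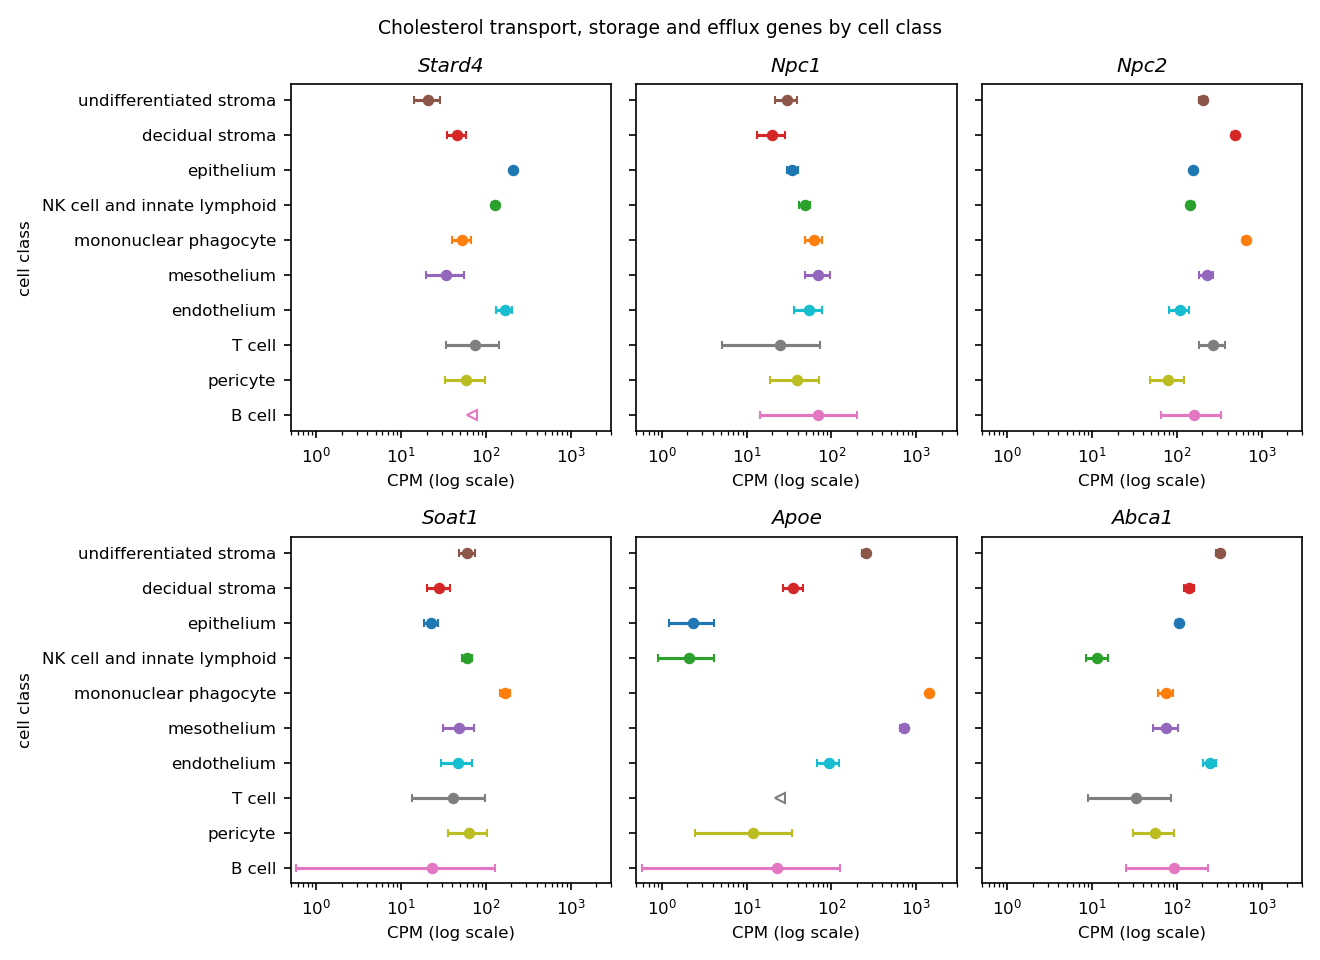
CPM on a log axis of the transport, storage, efflux and lipoprotein genes in each class, with exact 95% Poisson intervals; open triangles are the level of 3 counts where a class had 0 UMIs. Apoe spans the widest range, from 2.10 CPM in NK cells to 1421 CPM in phagocytes, and Abca1 is highest in undifferentiated stroma.

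Across the 22 clusters, each gene's CPM was compared with the summed CPM of the other enzymes; the clusters come from 1 library and share its depth and free RNA, so the coefficients are descriptions only. Idi1 followed the other enzymes most closely (Pearson 0.929, Spearman 0.916), then Cyp51 (0.917 and 0.870) and Hmgcs1 (0.783 and 0.826). Fdps, Msmo1 and Mvd followed at 0.753, 0.748 and 0.743 (Pearson). Tm7sf2 and Mvk did not follow, at -0.301 and -0.0534. Of the regulators, Insig1 was at 0.654 and Srebf2 at 0.60, while Scap and Nr1h2 were at 0.145 and 0.0801. Abca1 ran the other way (-0.680 and -0.750), as did Apoe (-0.530 and -0.470), and the median UMIs of a cluster gave 0.269 and 0.302.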

How the data were processed

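Per the file headers, the authors deposited UMI counts per gene and barcode from Cell Ranger 4.0.0, and per the submitters' processing notes the build was mm10; no annotation release or cell calling is named in those sources. Every deposited barcode had at least 500 UMIs. Of 32287 features, the 40 that shared a symbol were summed into it. Cells needed 500 genes and at most 20% mitochondrial UMIs (1825 of 2775 barcodes); Scrublet, with 5% doublets expected, marked 3 (0.164%), too few to count as a working doublet filter, so doublets were in effect not removed. Clustering used scanpy 1.11.5 (2000 variable genes without the members and the other pathway genes, 30 components, 15 neighbours, Leiden resolution 1, igraph 0.11.9), and clusters were named from 139 markers in 22 sets; decidual and undifferentiated stroma, whose markers overlap, were separated by a rule set after the clusters were seen. CPM uses all UMIs of a group. Poisson, conditional binomial and Clopper-Pearson intervals came from scipy 1.17.1, figures from matplotlib 3.10.9, on Python 3.11.15. The ratio rule was tested on simulated data. These were independent Poisson counts per group, without the clumping of UMIs in single cells seen here, so the test does not cover such clumping. Intervals cover counting error only, and no p-value was computed with 1 library.

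All members were accounted for; those past the size rule were named, and of the other 49 pathway genes those with the highest and lowest ratios, some of which are not reported here. The members and lists were chosen with earlier results of these data known. The Bmp2-rich, Bmp2-poor, NK and macrophage-like comparisons and 4 of the alternative settings were chosen after the data were seen. Positions of genes come from the GENCODE M21 annotation of GRCm38. Cyp51, Fdft1, Hmgcs1, Lss and Npc1 overlap genes on the opposite strand and Tm7sf2 overlaps Vps51 on its own strand; the strand setting of the counting is not stated there, so these levels are uncertain to that extent.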

Additional observations from a re-analysis of the deposited data

How the results depend on the processing

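With 1 library no alternative tests biological spread, and depth differs between groups, so calls of sparse genes depend on it. No paired analysis was possible because a single library was analysed. Values were recomputed under 9 planned settings and 4 further ones, and 2 summed ratios crossed 1, that of macrophage-like against monocyte-like cells at Leiden resolution 2 and that of the Bmp2-poor cluster against undifferentiated stroma, which was near 1 throughout; the 4 (cells of 3000 to 12000 UMIs, 2 left-out clusters and the left-out cell of most enzyme UMIs per cluster) were chosen after seeing the data. Causes of the moves were not tested, except that a stricter or looser UMI minimum changes how many genes are counted.

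Members higher in decidual cells than in undifferentiated stroma (7 as reported) numbered 4 with at most 10% mitochondrial UMIs, 11 with no cell filter, 12 at a minimum of 20 UMIs and 4 at 100; the summed ratio was 2.21 at 10% mitochondrial. Between the decidual clusters the higher members (7) numbered 1, 14, 2 and 2 at 10% mitochondrial, a minimum of 20, a minimum of 100 and in cells of 3000 to 12000 UMIs, the lower ones (1) numbered 0 at 10% mitochondrial, and the ratio was 2.79 at 10% mitochondrial and 6.16 in the depth window. For the Bmp2-rich cluster against undifferentiated stroma the higher members (7) numbered 4, 15, 4 and 3 in the same order, with ratios of 2.59 at 10% mitochondrial, 4.38 as a mean of per-cell shares and 5.74 in the depth window. For the Bmp2-poor cluster the lower members (2) numbered 1 at 10% mitochondrial, with no cell filter, at Leiden resolution 2, with mitochondrial UMIs left out of the total, in the depth window, without the shallowest undifferentiated cluster and without the cell of most enzyme UMIs, and 4 at a minimum of 20.

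In epithelium the higher members (3) numbered 6 in the depth window, and the ratio was 1.53 per cell, 1.73 in the depth window and 1.28 without the cell of most enzyme UMIs. In phagocytes the lower members (3) numbered 5 per cell, and the ratio was 0.833 without that cell. In the glandular cluster the higher members (2) numbered 0 in the depth window. Between NK clusters the higher members (10) numbered 3 and the ratio was 2.98 in the depth window, and the lower members (0) numbered 1 with no cell filter and 3 at a minimum of 20. For macrophage-like against monocyte-like cells the higher members (1) numbered 2 with no cell filter and 4 at resolution 2; the lower members (2) numbered 0 at resolution 2, at a minimum of 100 and in the depth window, and 1 per cell and without the cell of most enzyme UMIs; the ratio was 1.97 at resolution 2 and 0.421 in the depth window.

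The summed enzymes of decidual cells were 419 CPM at 10% mitochondrial, 589 CPM with mitochondrial UMIs left out of the total, 584 CPM in the depth window and 468 CPM without the cell of most enzyme UMIs in each cluster. Epithelium was at 667 CPM without mitochondrial UMIs and 600 CPM per cell; NK cells were at 713 CPM without mitochondrial UMIs, 534 CPM per cell and 508 CPM in the depth window; and phagocytes were at 416 CPM per cell, 395 CPM in the depth window and 443 CPM without those cells. The ratios of the glandular cluster (0.426 to 0.529) and of the Bmp2-poor cluster (0.915 to 1.01), and the sums of undifferentiated stroma (186 to 201 CPM), mesothelium (202 to 226 CPM) and endothelium (282 to 339 CPM) stayed close under every setting run.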

Other observations

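Of the steroid-forming genes in the list of other pathway genes, Cyp11a1, the side-chain cleavage enzyme that turns cholesterol into pregnenolone, had 32 UMIs in decidual cells (22.0 CPM), 1 UMI in undifferentiated stroma (0.645 CPM) and 0 in every other named class; it lies under the minimum of 50 UMIs and was chosen after its values were seen. Hsd3b1 and Hsd3b6, which make progesterone from pregnenolone, had 0 UMIs in every class, and Star, which brings cholesterol into mitochondria, was highest in mesothelium at 24.1 CPM. Scarb1, the receptor for high-density lipoprotein, also chosen after its values were seen, was at 378 CPM in endothelium and at most 49.7 CPM in the other classes.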
